A study of Sus scrofa with 13 samples.

Results

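The genes described here are 10 drivers and guards of cell division: the kinases PLK1, AURKA, AURKB, BUB1, TTK and CDK1, the cyclins CCNB1 and CCNB2, the checkpoint protein BUB1B and the anaphase activator CDC20. They were chosen by name as gene symbols of the deposited pig gene table, and all 10 were found among its 28208 genes. Messenger RNA had been sequenced from pools of pig (Sus scrofa) preimplantation embryos in 13 libraries and 5 groups. In vivo embryos were blastocysts and hatched blastocysts (2 libraries each). Embryos made by in vitro fertilisation (IVF) were at the 4-cell stage, blastocysts and hatched blastocysts (3 libraries each). Blastocysts are embryos that have formed a cavity, and hatching frees them from the zona pellucida, the coat of the egg. The labels used here give no genotype, treatment, embryo age or breed, and no number of embryos in a pool, and in vivo 4-cell embryos were not analysed here.

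Entry into mitosis is driven by CDK1, a kinase that works only when bound to a B-type cyclin, and AURKA and PLK1 promote that activation and build the spindle poles. The spindle checkpoint then delays separation of the chromosomes until every kinetochore, the chromosome's attachment point, is held by spindle fibres: TTK and BUB1 start the signal at the kinetochore, AURKB loosens wrong attachments, and BUB1B helps to hold back CDC20. Once released, CDC20 activates the anaphase-promoting complex, which marks the B cyclins for destruction. Early cleavage divisions run largely on messages and proteins stored in the egg, and later ones on messages from the embryo's own genome.

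Between 33222191 and 39256290 counts fell on genes in each library. The 4-cell libraries differed most among themselves: library 1 had a Pearson correlation of log2 CPM (counts scaled to a common library size) of 0.883 and 0.878 with libraries 2 and 3, across genes, against at least 0.981 within each other group. Values of the 10 genes against the 4-cell stage are therefore also given without library 1, and those of the lists are not. Egg and trophectoderm markers followed the labelled stages in these libraries, and the epiblast and hypoblast markers did so less or not at all. The 4 epiblast markers summed to 438 to 831 CPM at the 4-cell stage and 981 to 1457 CPM in IVF blastocysts, but SOX2 and DPPA4 were lower in blastocysts. The 4 hypoblast markers overlapped between these groups (129 to 232 and 177 to 215 CPM), with SOX17 higher and GATA4 lower in blastocysts. The 6 egg genes GDF9, BMP15, ZP3, ZP2, ZAR1 and FIGLA summed to 8788 to 14080 CPM in 4-cell libraries and to at most 18.8 CPM in any later library, and the 6 trophectoderm genes (the outer blastocyst layer) to at least 19600 CPM in every later library and at most 563 CPM at the 4-cell stage. The labels do not say that libraries of a group came from separate animals or fertilisation rounds, so p-values measure only the spread between these libraries, which may be technical. In such bulk pools, fewer dividing cells and less of a message in each cell cannot be told apart. The in vivo hatched library whose count column had no replicate number is called the unnumbered library.

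Per length of gene, CCNB1 was the most abundant of the 10 messages by the authors' FPKM, a level scaled for gene length and depth, in 12 of 12 libraries. The FPKM column of 1 in vivo hatched library could not be tied to the unnumbered count column and was left out, so that group has 1 FPKM value. CCNB1 had 959 ± 393 FPKM at the 4-cell stage (SD, n = 3), 285 ± 62 and 332 ± 12 FPKM in IVF blastocysts and hatched blastocysts (n = 3), 261 ± 74.7 in in vivo blastocysts (n = 2) and 349 in the in vivo hatched library. CDC20 was among the 4 most abundant in every library. TTK and BUB1B were the lowest pair in every blastocyst and hatched library, with TTK at 6.62 ± 0.857 FPKM in in vivo blastocysts and 15.7 FPKM in the in vivo hatched library. At the 4-cell stage, BUB1 and TTK were the lowest pair instead. The 10 messages together made up 0.390% to 0.601% of all FPKM in 4-cell libraries and 0.122% to 0.221% later, so their summed level per length was higher in each 4-cell library than in any later one.

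**Figure D1:**
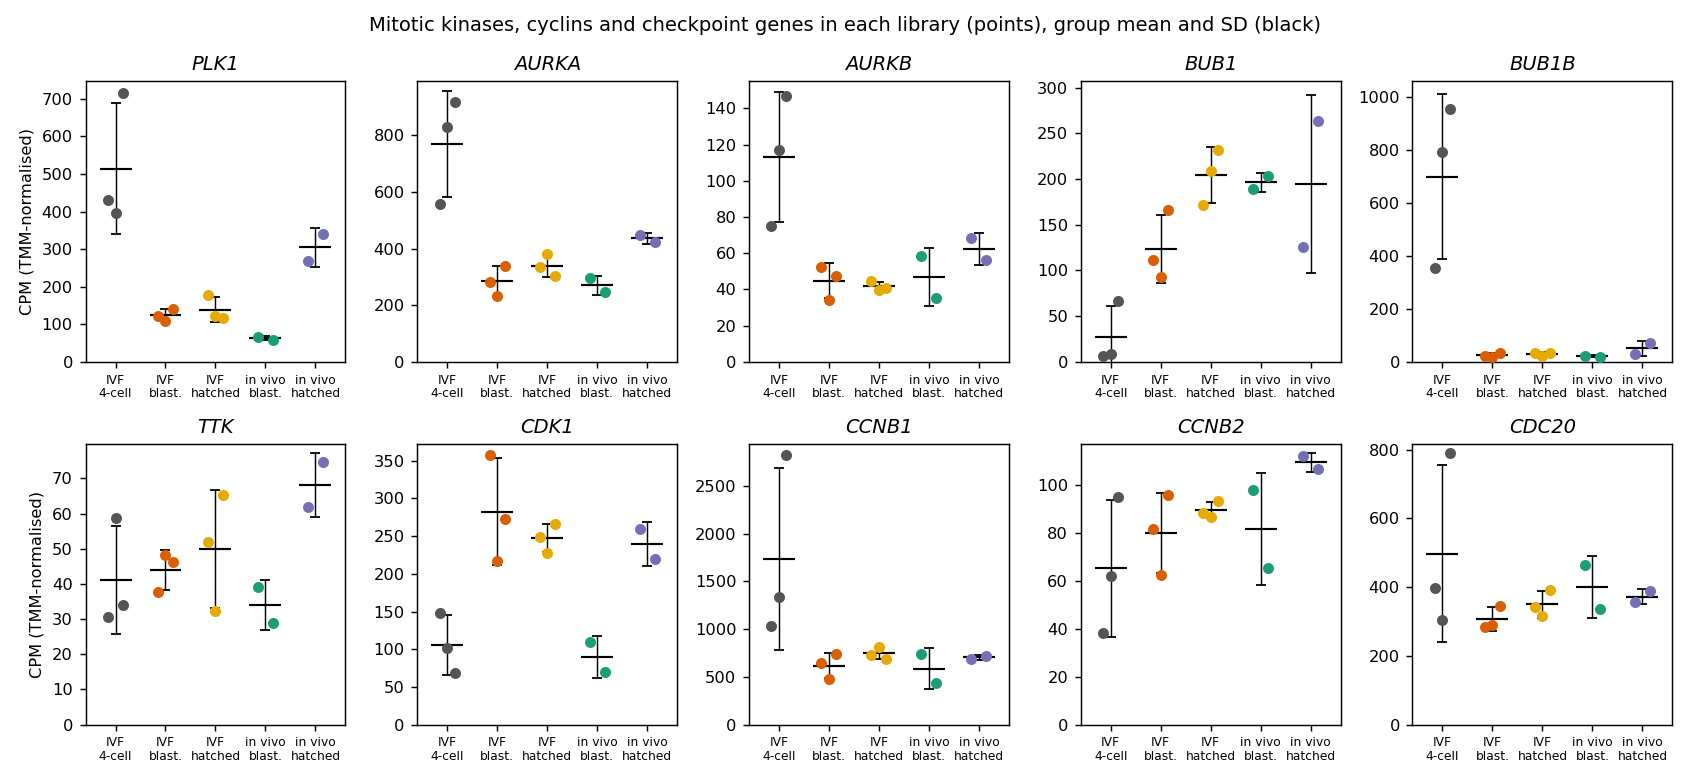
CPM (normalised for composition by TMM, linear axes from 0) of the 10 genes in each of 13 libraries, as points, with the group mean (bar) and SD (whisker), n = 3 for IVF and n = 2 for in vivo groups. PLK1, AURKA, BUB1B and CCNB1 were highest in the 4-cell libraries, BUB1 was lowest there, and PLK1 and CDK1 were lower in in vivo blastocysts than in the other blastocyst groups.

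The first comparison set IVF blastocysts against IVF 4-cell embryos, which are already within cleavage, and asked how these messages differed between the stages. Of the 10 genes, 5 fell (PLK1, AURKA, AURKB, BUB1B, CCNB1) and 1 rose (CDK1) by edgeR's quasi-likelihood test with Benjamini-Hochberg adjustment over all genes, where 56.4% of 16290 genes tested were called (25.7% higher, 30.7% lower). The CPM ranges of the groups were apart for 7 of 10 genes, and for 66.2% of all genes. The share called, 6 of 10, was near that of all genes. Their median log2 fold change was -1.13, and that of all genes tested was -0.23. In IVF hatched blastocysts against 4-cell embryos the same 5 genes fell and CDK1 and BUB1 rose (56.6% of all genes called, 25.7% higher and 30.9% lower), and ranges were again apart for 7 of 10 (66.9% of all genes), with a median of -0.95 against -0.24 for all genes. Without 4-cell library 1, 6 and 7 of the 10 were called again, while calls over all genes went from 9180 and 9217 to 11440 and 11526. Both comparisons share the 4-cell libraries, so the second is no independent repeat of the first. With library size as the only scaling, the median of all genes moved to -0.50 in blastocysts and -0.55 in hatched blastocysts. Egg genes moved with these differences (sums above), and their part in the result was not tested.

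BUB1B, which encodes the checkpoint protein BubR1, changed most. It had 354, 790 and 955 CPM in the 4-cell libraries and 18.0 to 71.4 CPM in the 10 later ones, so the groups lay far apart. The log2 fold change was -4.88 ± 0.51 (SE) in IVF blastocysts (adjusted p = 0.000124, edgeR) and -4.70 ± 0.50 in IVF hatched blastocysts (adjusted p = 0.000144). Without 4-cell library 1 these values were -5.09 and -4.92.

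BUB1, the related kinase that recruits checkpoint proteins to the kinetochore, lay the other way round. It had 6.1, 9.0 and 66.8 CPM in the 4-cell libraries and 93.3 to 264 CPM in later ones, with no overlap, and 1 of the 3 4-cell libraries stood well above the others. Its rise of 2.78 ± 0.85 in IVF hatched blastocysts passed the test (adjusted p = 0.0201). In IVF blastocysts the log2 fold change of 2.05 ± 0.82 did not (adjusted p = 0.0588), but it passed with DESeq2 (1.99, adjusted p = 0.0312) and with all 13 libraries in edgeR's fit (2.08, 0.0359). The high 4-cell library, number 3, decided the size: without it the values were 4.68 and 3.96, both called. The hatched call was lost without IVF hatched library 3 (2.69, adjusted p = 0.0502), and leaving out 4-cell library 1 gave 2.42 and 1.70, the second not called (0.0681).

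The ratio of BUB1 to BUB1B per length shows the pair at once. It was 0.0119, 0.018 and 0.0733 in the 4-cell libraries and between 3.91 and 11.6 in all later libraries. In log2 terms the mean ratio was 7.70 higher in IVF blastocysts and 8.24 higher in IVF hatched blastocysts. An exact two-sided permutation test gave p = 0.1 for each, the smallest that 3 against 3 libraries allow, and 0.185 after adjustment over the 24 ratio tests made.

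**Figure D2:**
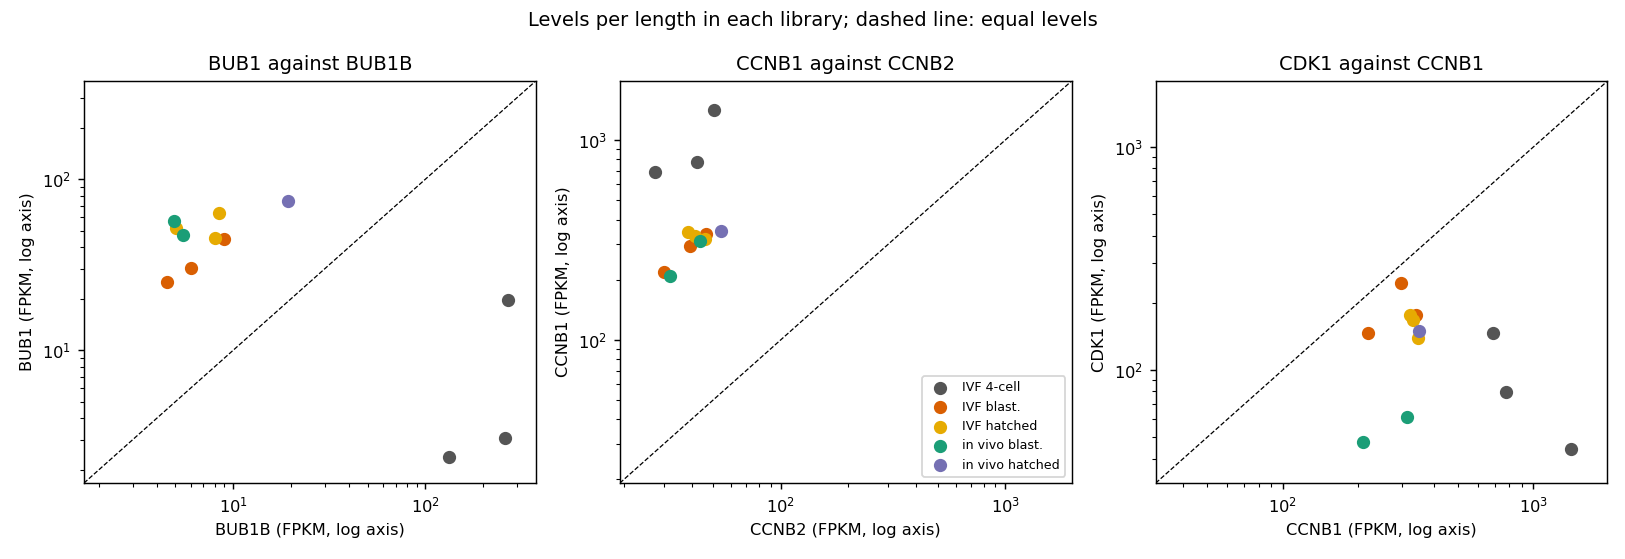
Authors' FPKM of BUB1 against BUB1B, CCNB1 against CCNB2 and CDK1 against CCNB1, on log axes, with 1 point for each of 12 libraries and a dashed line at equal levels. The 3 4-cell libraries lie below the line for BUB1 against BUB1B (ratios up to 0.0733) and all later libraries above it (ratios from 3.91).

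The cyclins also parted. CCNB1, the main B cyclin of mitosis, had 1037, 1335 and 2820 CPM at the 4-cell stage and 435 to 812 CPM in all later libraries. Its log2 fold change was -1.60 ± 0.41 in IVF blastocysts (adjusted p = 0.0099) and -1.33 ± 0.41 in IVF hatched blastocysts (adjusted p = 0.0214). The first call was lost without IVF blastocyst library 2 (-1.33, adjusted p = 0.0538). The second was lost without 4-cell library 3, the highest (-0.74, adjusted p = 0.0605), without any 1 of the hatched libraries (adjusted p of 0.0603 to 0.077), and when only the groups compared were fitted (-1.32, 0.0533). Without 4-cell library 1 the values were -1.75 and -1.49. CCNB2, a cyclin found mainly at the Golgi and not needed for mouse development, had 38.4, 61.9 and 95.2 CPM at the 4-cell stage and 62.3 to 112 CPM later, and the groups overlapped. It had 0.18 ± 0.37 (adjusted p = 0.699) and 0.35 ± 0.37 (adjusted p = 0.453), or 0.02 and 0.18 without 4-cell library 1. CCNB1 exceeded CCNB2 per length by 18.4 to 28.1 times in 4-cell libraries and by 6.41 to 8.98 times later, without overlap (exact permutation p = 0.1 in each IVF comparison with the 4-cell stage, adjusted 0.185).

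CDK1, the kinase both cyclins bind, was lower at the 4-cell stage than in the later IVF groups. In vivo blastocysts, at 110 and 70.2 CPM, overlapped the 4-cell libraries. CDK1 had 148, 102 and 68.4 CPM at the 4-cell stage, 217 to 358 CPM in IVF blastocysts and 228 to 266 CPM in IVF hatched blastocysts. Neither later IVF group overlapped the 4-cell libraries. The rise was 1.32 ± 0.34 (adjusted p = 0.01) and 1.13 ± 0.34 (adjusted p = 0.0197). With library size as the only scaling it was 1.0 (adjusted p = 0.0587) and 0.77 (0.128), both below the threshold, and the hatched call was also lost without IVF hatched library 1 (0.0524) or 3 (0.0612). Without 4-cell library 1 the values were 1.73 and 1.53. CDK1 and CCNB1 moved in opposite directions: per length, CDK1 stood at 0.0315 to 0.212 of CCNB1 in 4-cell libraries and at 0.402 to 0.826 in IVF blastocyst and hatched libraries. In in vivo blastocysts it stood at 0.195 and 0.227, which overlapped the 4-cell range.

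PLK1, which acts at centrosomes and kinetochores, had 432, 396 and 715 CPM at the 4-cell stage and 109 to 177 CPM in the IVF blastocyst and hatched libraries. The log2 fold change was -2.15 ± 0.34 in blastocysts (adjusted p = 0.00096) and -2.0 ± 0.34 in hatched blastocysts (adjusted p = 0.00136). AURKA, the centrosome Aurora kinase, had 558, 830 and 917 CPM at the 4-cell stage and 234 to 382 CPM in IVF embryos later (-1.54 ± 0.30, adjusted p = 0.00278, and -1.29 ± 0.30, adjusted p = 0.00624). AURKB, the kinase of the chromosomal passenger complex, had 75.3, 117 and 147 CPM and then 34.3 to 52.6 CPM (-1.44 ± 0.34, adjusted p = 0.00651, and -1.55 ± 0.34, adjusted p = 0.00466). These 3 kinases were called in both comparisons whichever library was left out. Without 4-cell library 1, PLK1 was at -2.16 and -2.01, AURKA at -1.62 and -1.37, and AURKB at -1.56 and -1.67.

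CDC20 and TTK gave no call against the 4-cell stage. CDC20 had 397, 304 and 790 CPM in the 4-cell libraries and 283 to 392 CPM in IVF embryos later, with overlap (-0.81 ± 0.38, adjusted p = 0.0963, and -0.62 ± 0.38, 0.189). With library size as the only scaling the blastocyst value was -1.0 and passed (0.029), and it also passed without 4-cell library 2 (-0.97, 0.0448). TTK had 30.6, 58.8 and 34 CPM and then 32.3 to 65.4 CPM (-0.01 ± 0.39, adjusted p = 0.99, and 0.18 ± 0.39, 0.719). Without 4-cell library 1, CDC20 was at -0.84 and -0.66 and TTK at -0.07 and 0.10. These p-values do not show that either gene was level across the stages.

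**Figure D3:**
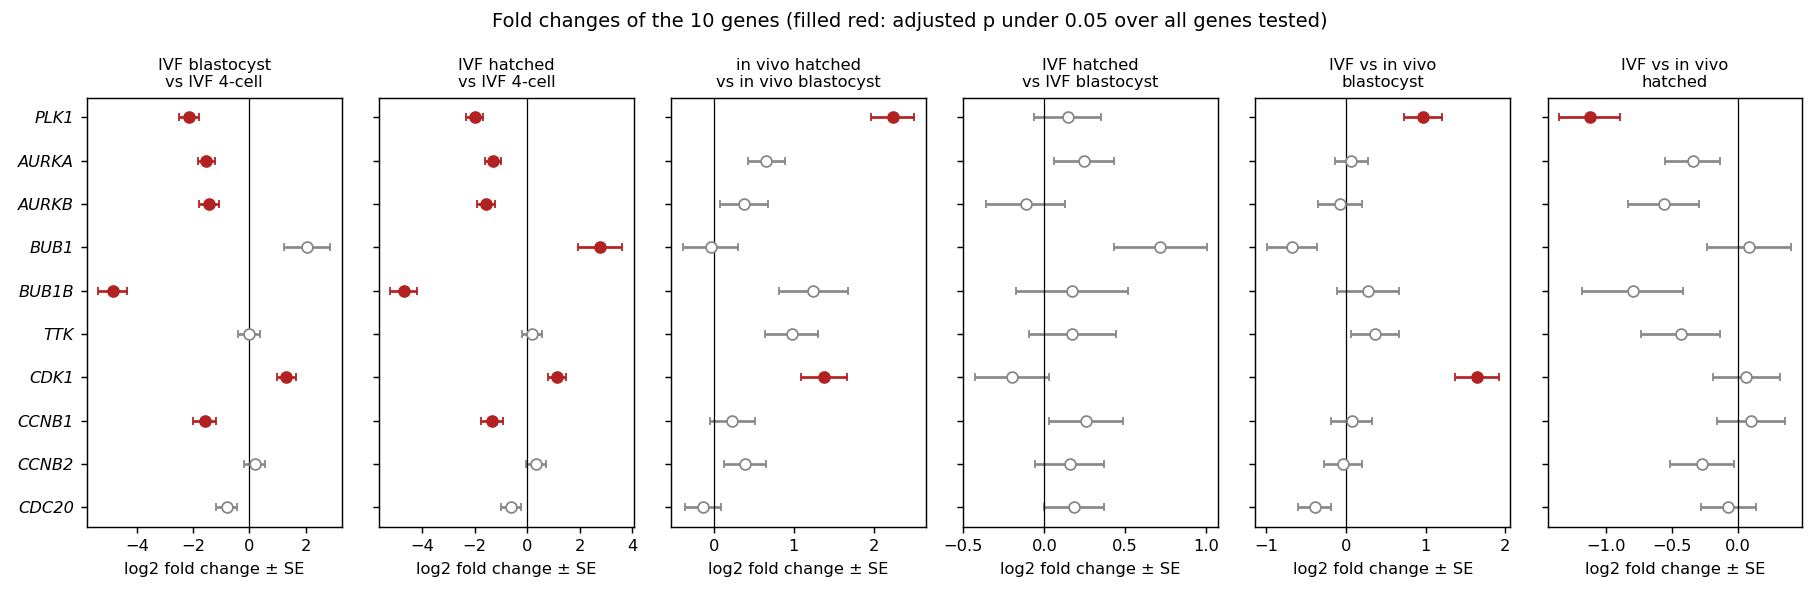
Log2 fold change ± SE of the 10 genes in 6 comparisons, from edgeR fits over all genes. Filled red points have an adjusted p under 0.05. BUB1B lies farthest left in both comparisons with 4-cell embryos, at -4.88 and -4.70, and PLK1 is the gene called in 5 of the 6 panels.

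Hatching in vivo was the next comparison, of in vivo hatched blastocysts with in vivo blastocysts. PLK1 and CDK1 rose and none of the 10 fell, 2 of 10 called where 14.3% of 15506 genes were (6.98% higher, 7.35% lower). The median log2 fold change of the 10 was 0.52 (all genes -0.01), and 8 of 10 were positive (48.6% of all genes). Unadjusted p-values were under 0.05 for AURKA, TTK and BUB1B as well, and DESeq2 called these 3 as well as PLK1 and CDK1. Among all 15506 genes, 4727 had an unadjusted p under 0.05 by edgeR, and DESeq2 called 3524. The CPM ranges of the groups were apart for 6 of 10 genes, against 53.3% of all genes tested.

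PLK1 had 67.2 and 59.4 CPM in in vivo blastocysts and 269 (unnumbered library) and 341 CPM after hatching. Both hatched libraries stood well above both blastocyst libraries. The log2 fold change was 2.24 ± 0.27 (adjusted p = 0.000878, a 4.71-fold rise), and it was called in each refit, including the one with all 13 libraries (adjusted p = 0.0352). CDK1 rose from 110 and 70.2 CPM to 260 and 219 CPM (1.38 ± 0.29, adjusted p = 0.00969). This call was lost without in vivo blastocyst library 2 (1.08, adjusted p = 0.0509), with only the groups compared in the fit (1.41, 0.0564) and with all 13 libraries in it (1.42, 0.158).

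The other kinases gave smaller values. AURKA had 294 and 246 CPM before and 449 and 423 CPM after hatching, with no overlap, and 0.66 ± 0.23 (adjusted p = 0.0745). It passed with library size as the only scaling (0.74, 0.0345). TTK had 39 and 29 CPM before and 61.8 and 74.6 CPM after (0.97 ± 0.33, adjusted p = 0.0711), and passed without a filter on low counts (0.0242) or without IVF hatched library 2 (0.0399). AURKB overlapped between the groups (0.38 ± 0.30, adjusted p = 0.427).

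Both checkpoint genes of the BUB1 family differed between the hatched libraries. BUB1B had 23.3 and 18.9 CPM before hatching and then 30.6 in the unnumbered library and 71.4 in library 2 (1.24 ± 0.43, adjusted p = 0.0749). With 1 library left out BUB1B was at 0.515 to 1.73. The value of 1.73 was without the unnumbered library, a fit with 1 in vivo hatched library left. BUB1B passed without a filter on low counts (0.00593). BUB1 had 189 and 204 CPM before and 126 and 264 CPM after, and the groups overlapped (-0.04 ± 0.35, adjusted p = 0.965). Library 2 also had the higher sum of the 4 hypoblast markers, 594 CPM against 197 in the unnumbered library, and of the 5 stroma and vessel markers, 54.2 against 12.6 CPM, with COL1A1 and VWF at 0 counts in both. The part of these markers in the values was not tested. CCNB1 (0.23 ± 0.28, adjusted p = 0.624), CCNB2 (0.39 ± 0.26, 0.346) and CDC20 (-0.14 ± 0.23, 0.743) did not pass.

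Hatching after IVF, in IVF hatched against IVF blastocysts, gave no call among the 10 by edgeR (0.0451% of all genes were called), and none by DESeq2. By either tool 1 of the 10, BUB1, had an unadjusted p under 0.05, beside 594 of all genes by edgeR and 659 by DESeq2. The median log2 fold change of the 10 was 0.17 (all genes -0.001). As in vivo, 8 of 10 were positive (49.4% of all genes). BUB1 had 111, 93.3 and 166 CPM before and 171, 209 and 232 CPM after, the only gene of the 10 whose ranges were apart here (0.72 ± 0.29, adjusted p = 1; 10.7% of all genes had ranges apart). PLK1 had 123, 109 and 141 CPM and then 177, 121 and 117 CPM, with overlap (0.14 ± 0.21). CDK1 had 358, 217 and 273 CPM and then 249, 228 and 266 CPM, also with overlap (-0.20 ± 0.23).

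The difference between the hatching changes, after IVF minus in vivo, was tested as an interaction in the same fit. It passed for PLK1 (-2.09 ± 0.33, adjusted p = 0.00834) and CDK1 (-1.58 ± 0.36, adjusted p = 0.0343), 2 of 10 where 4.73% of all genes passed (2.79% with a higher and 1.94% with a lower change after IVF). PLK1 kept its call whichever of the 10 libraries was left out (-2.31 to -1.92) and lost it with all 13 libraries in the fit (-2.12, adjusted p = 0.211). CDK1 kept it without in vivo blastocyst library 1 or IVF blastocyst library 2 only, and lost it in the other 8 cases (adjusted p of 0.053 to 0.0782) and with all 13 libraries (-1.61, 0.379). The 8 other genes did not pass, with values from -1.07 ± 0.55 (BUB1B) to 0.76 ± 0.45 (BUB1).

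Embryo origin at the blastocyst stage was compared by setting IVF against in vivo blastocysts. PLK1 and CDK1 were higher after IVF, 2 of 10 where 10.8% of 15506 genes were called (6.09% higher, 4.72% lower), and no gene of the 10 was lower. CDK1 had 358, 217 and 273 CPM after IVF and 110 and 70.2 CPM in vivo, groups that lay apart (1.64 ± 0.27, adjusted p = 0.00574, or 3.13-fold). Its call held whichever library was left out and ended with all 13 libraries in the fit (adjusted p = 0.147). PLK1 had 123, 109 and 141 against 67.2 and 59.4 CPM, again apart (0.97 ± 0.24, adjusted p = 0.0276). Its call was lost without any 1 of the 5 libraries compared (0.87 to 1.08, adjusted p of 0.0507 to 0.113) and with all 13 libraries (0.96, 0.332). In vivo blastocysts also enter the hatching comparison above, so a low level there counts in both.

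Relative to CCNB1, CDK1 was higher in each IVF blastocyst library than in either in vivo blastocyst library. Per length, CDK1 was 0.519 to 0.826 of CCNB1 in IVF blastocysts and 0.195 and 0.227 in in vivo blastocysts, without overlap (exact two-sided permutation p = 0.2, the smallest that 3 against 2 libraries allow, adjusted 0.229). CCNB1 itself had 642, 473 and 742 CPM after IVF and 736 and 435 CPM in vivo (0.07 ± 0.25, adjusted p = 0.896). CCNB2 (-0.04 ± 0.24), AURKA (0.07 ± 0.21) and AURKB (-0.07 ± 0.27) had adjusted p from 0.875 to 0.943. BUB1 lay apart, with 111, 93.3 and 166 CPM after IVF and 189 and 204 CPM in vivo, and did not pass (-0.68 ± 0.31, adjusted p = 0.189). The ranges were apart for 3 of 10 genes and 44.3% of all genes. CDC20 (-0.39 ± 0.21, 0.241), TTK (0.37 ± 0.30, 0.473) and BUB1B (0.27 ± 0.39, 0.708) did not pass.

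In hatched blastocysts PLK1 was the only 1 of the 10 called, and it was lower after IVF (1 of 10, with 11.9% of all genes called, 6.97% higher and 4.9% lower). It had 177, 121 and 117 CPM after IVF and 269 and 341 CPM in vivo, with no overlap (-1.12 ± 0.23, adjusted p = 0.0108). The order of origins for PLK1 was thus opposite at the 2 stages, higher after IVF in blastocysts and lower in hatched blastocysts. The interaction given above tests that these differences are unequal, not that their signs are opposite, and the blastocyst call was lost without any 1 of its 5 libraries. The hatched call was lost without in vivo hatched library 2 (-0.95, adjusted p = 0.092) and with all 13 libraries in the fit (-1.15, 0.173). CDK1 overlapped between origins (249, 228 and 266 against 260 and 219 CPM, 0.06 ± 0.26, adjusted p = 0.911).

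Ranges were apart in hatched blastocysts for 4 of the 10, and for 46.2% of all genes. Besides PLK1 these were AURKA (335, 382 and 302 after IVF against 449 and 423 CPM in vivo, -0.34 ± 0.21, adjusted p = 0.304), AURKB (44.5, 39.6 and 41 against 68.6 and 56.1 CPM, -0.56 ± 0.27, 0.199) and CCNB2 (88.4, 86.9 and 93.5 against 112 and 107 CPM, -0.27 ± 0.24, 0.502). BUB1B was at -0.80 ± 0.38 (adjusted p = 0.201), and at -1.28 to -0.07 with 1 library left out. The value of -1.28 was without the unnumbered library, a fit with 1 in vivo hatched library left. Of the 4 hypoblast markers, 3 were lower after IVF at this stage and none higher (median -3.11): PDGFRA (-4.70), SOX17 (-4.36) and GATA4 (-1.86). They summed to 142 to 210 CPM after IVF and 197 and 594 CPM in vivo. Of the 4 epiblast markers POU5F1 was higher after IVF (967 ± 153 against 446 ± 168 CPM) and made up most of their sum, while SOX2 (0.84 against 5.86 CPM), DPPA4 (14.2 against 28) and LIN28A (3.02 against 4.72) had lower means after IVF and did not pass (list median -0.79). The part of these markers in the values above was not tested. Animals, embryo age, collection day and sequencing batch may go with origin, and these cannot be told apart from it.

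The order of the 5 groups differed from gene to gene. For PLK1 it ran 4-cell (514 ± 174 CPM), in vivo hatched (305 ± 51), IVF hatched (138 ± 33.5), IVF blastocyst (124 ± 16) and in vivo blastocyst (63.3 ± 5.56), and only the IVF groups overlapped as neighbours. Over the 4 blastocyst and hatched groups its highest mean was 4.81 times its lowest, the widest span of the 10, followed by CDK1 (3.14), BUB1B (2.42) and TTK (2.01). CCNB1 (1.27), CDC20 (1.31) and CCNB2 (1.37) had the narrowest spans. TTK overlapped between all neighbours in its order, and CDC20 likewise.

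Across the 13 libraries the 45 pairs of these genes had a median Pearson correlation of log2 CPM of 0.19, from -0.75 (BUB1 with BUB1B) to 0.94 (AURKA with BUB1B), and 19 pairs were negative. Over the 10 blastocyst and hatched libraries the median was 0.49 and 4 pairs were negative, with BUB1 and BUB1B at 0.51. The points share stage, depth and scaling, so these are descriptions. Of 10495 other genes with a proper symbol and at least 5 CPM in a group, the 8 closest to the mean standardised profile of the 10 over 13 libraries were TPX2 (r = 0.897), NUSAP1 (0.89), SART1 (0.884), RFC1 (0.88), CEP78 (0.877), NPM3 (0.873), SCARA5 (0.863) and FAM35A (0.855). BUB1 (-0.16) and CDK1 (-0.11) had almost no correlation with that mean profile.

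Other genes of the pathway were taken from lists. Against the 4-cell stage, 8 of 15 partners of the Aurora and Polo kinases fell in IVF blastocysts and none rose (median -1.45), where 30.7% of all genes fell and 25.7% rose (median -0.23). TACC3, which steadies spindle fibres with AURKA, went from 1387 ± 1069 to 92.6 ± 10.3 CPM (-4.02 ± 0.58, adjusted p = 0.000632), and HMMR, a spindle protein, from 576 ± 287 to 86.6 ± 3.6 CPM (-2.84 ± 0.44, 0.000848). AURKC, the Aurora kinase of germ cells and eggs, went from 605 ± 275 to 90.1 ± 16.3 CPM, but a second gene annotated as aurora kinase C had nearly the same counts, so its reads may be shared and its values are uncertain. Of 12 other checkpoint genes 3 fell and 1 rose (median 0.28). MAD1L1, the scaffold of MAD2, had -1.86 ± 0.53 (0.0149) and MAD2L1BP, which helps to switch the checkpoint off, -1.96 ± 0.51 (0.00963).

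CDK1 regulators were split against the 4-cell stage, with 6 of 19 higher and 6 lower in IVF blastocysts (median -0.28), beside 25.7% higher and 30.7% lower among all genes. WEE2, the egg form of the kinase that restrains CDK1, had 4929 ± 2802 CPM in 4-cell libraries, 0.214 ± 0.193 in IVF blastocysts and no counts in IVF hatched libraries. MASTL, which protects CDK1 targets from dephosphorylation, went from 162 ± 72.1 to 14.4 ± 2.4 CPM (-3.60 ± 0.45, adjusted p = 0.000307). CDKN1A, the inhibitor p21, rose from 8.93 ± 0.558 to 241 ± 30.5 CPM (4.65 ± 0.29, adjusted p = 1.84e-05). Of 20 genes of the anaphase-promoting complex and anaphase 4 rose and 6 fell (median 0.11), and PTTG1, the securin that holds back separase, went from 4657 ± 3127 to 92.2 ± 23.4 CPM (-5.77 ± 0.57, adjusted p = 9.35e-05). Of 9 regulators of egg meiosis, compared here as a list of their own, 8 fell and none rose. WEE2, CCNB3, FBXO43, AURKC and SGO2 are in this list and also in another list here, so they are counted in both. Kinetochore genes gave 4 higher and 4 lower of 20 (median -0.09), motors and cytokinesis genes 1 higher and 5 lower of 15 (median -0.22), and regulators of mitotic transcription 5 higher and 7 lower of 23 (median -0.31).

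In in vivo hatching the motors and cytokinesis genes had the most calls of any mitotic list: 8 of 15 rose and 2 fell (median 1.10), where 6.98% of all genes rose. The kinesin KIF20A, which carries the passenger complex to the midzone, rose from 90 ± 13.5 to 241 ± 77.3 CPM (1.39 ± 0.27, adjusted p = 0.00671), and KIFC1, a motor that focuses spindle poles, from 113 ± 2.73 to 246 ± 33.7 CPM (1.10 ± 0.23, 0.0101). KIF22, a chromosome motor, fell from 179 ± 47.9 to 13.6 ± 11 CPM (-3.76 ± 0.63, 0.00361). Named after their values were seen, RACGAP1, ECT2, KIF4A, KIF23, KIF11 and KIF15 also rose (1.01 to 1.77) and CEP55, needed for the final cut between daughter cells, fell (-1.98). The list of replication genes, MCM helicase subunits and their loaders, had 8 of 20 higher and none lower (median 0.81), with MCM4 at 1.75 ± 0.22 (adjusted p = 0.000878). Hypoblast markers rose in 3 of 4 in this comparison, and their part in these counts was not tested.

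CDK1 regulators changed in both directions in in vivo hatching, 4 of 19 higher and 5 lower (median -0.51), beside 6.98% higher and 7.35% lower among all genes. CCNA2, the cyclin of S phase and early mitosis, rose from 111 ± 13.8 to 330 ± 19.3 CPM (1.54 ± 0.22, adjusted p = 0.00194). CDKN1A fell from 210 ± 22.6 to 26.2 ± 21.5 CPM (-3.04 ± 0.47, 0.00252), and CDK7, part of the kinase that activates CDK1, from 235 ± 2.9 to 90.7 ± 5.87 CPM (-1.41 ± 0.20, 0.00188). The interaction passed for all 3 (CCNA2 -1.55 ± 0.28, adjusted p = 0.0145; CDKN1A 3.03 ± 0.58, 0.0169; CDK7 1.27 ± 0.26, 0.021), so their hatching changes differed between origins, as for PLK1. Of the kinetochore list 3 of 20 rose and 1 fell (SGO2, the guard of centromere cohesion, 2.18 ± 0.40, adjusted p = 0.00531), of the other checkpoint genes 1 of 12 rose (ZW10, 0.98 ± 0.27, 0.0335), of the transcription list 3 of 23 rose and 3 fell, of the anaphase list 1 of 19 rose and 1 fell, and of the Aurora and Polo partners AURKC alone, 1 of 15, fell.

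**Figure D4:**
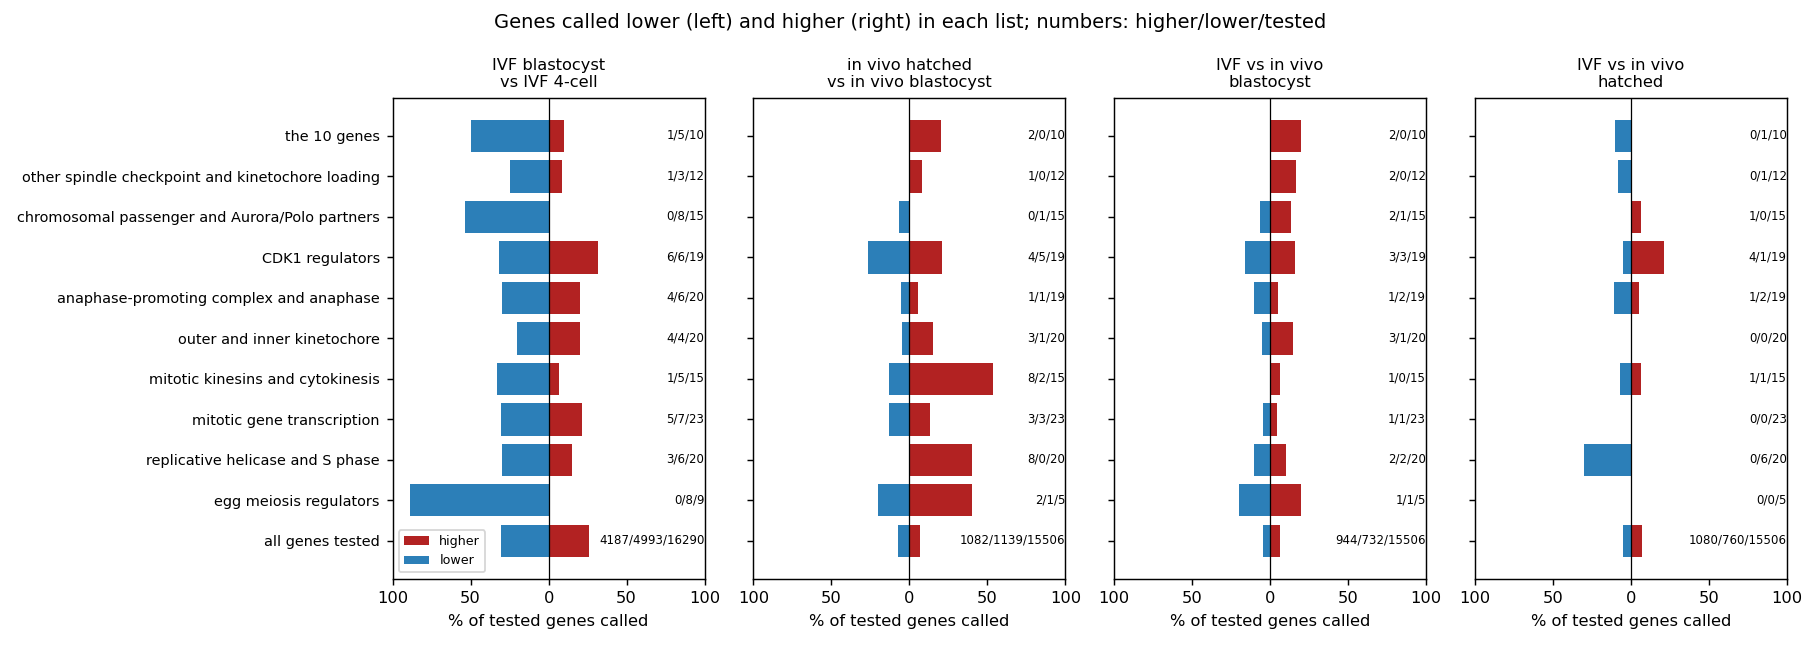
Share of tested genes called lower (blue, to the left) and higher (red, to the right) in each list in 4 comparisons, with counts of higher, lower and tested genes at the right edge, and all genes tested in the bottom row. In in vivo hatching 8 of 15 motor and cytokinesis genes and 8 of 20 replication genes were higher, beside 2 of the 10 genes described here.

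Between origins the lists are read against 6.09% higher and 4.72% lower among all genes in blastocysts, and 6.97% and 4.9% in hatched blastocysts. In IVF against in vivo blastocysts 3 of 20 kinetochore genes were higher and 1 lower. CENPF, a kinetochore protein of late G2, was higher (1.35 ± 0.32, adjusted p = 0.0225) and DSN1 lower (-1.17 ± 0.30, 0.0292). Of 19 CDK1 regulators 3 were higher and 3 lower. These included CKS2 (1.89 ± 0.44, 0.0216), CDKN1C (-1.93 ± 0.43, 0.0181) and PKMYT1 (-2.90 ± 0.65, 0.0191). Of 12 other checkpoint genes 2 were higher, MAD2L1 (0.80 ± 0.22, 0.039) and MAD2L2 (1.02 ± 0.26, 0.0288), and none lower. Of 15 Aurora and Polo partners 2 were higher and 1 lower. The passenger subunit BIRC5 was higher (0.94 ± 0.26, 0.0378), and AURKC, with its uncertain values, was lower (-1.02 ± 0.28, 0.0383). Of 23 transcription genes 1 was higher and 1 lower (median -0.19). MYBL2, a transcription factor of mitotic genes, was higher (0.93 ± 0.22, 0.0233) and LIN37 lower (-0.97 ± 0.25, 0.0334). In hatched blastocysts no kinetochore gene (0 of 20) and no transcription gene (0 of 23) passed by edgeR, where 2 and 5 had an unadjusted p under 0.05. Among all genes 4271 of 15506 had one. CCNA2 was lower after IVF (-0.79 ± 0.20, adjusted p = 0.0236) and CDKN1A higher (3.23 ± 0.46, 0.00158). Of the CDK1 regulators 4 of 19 were higher and 1 lower. Of the replication list 6 of 20 were lower and none higher (median -0.57), beside 1 lower among the 10 (median -0.31, all genes 0.04).

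Some of these genes overlap others on the Sscrofa11.1 assembly, and strand use in counting is not known. PLK1 (chromosome 3, 22537814 to 22550901) shares 59 bases with ERN2, AURKA (chromosome 17, 56954838 to 56972435) 234 bases with CSTF1, and CDK1 (chromosome 14, 64233945 to 64255290) 331 bases with a pseudogene, so reads there could be split or shared. AURKB (chromosome 12, 53410833 to 53426165) spans 4 tRNA genes. No overlapping gene is annotated for BUB1 (chromosome 3, 45585188 to 45623240), BUB1B (chromosome 1, 131093026 to 131143840), TTK (chromosome 1, 86076576 to 86125334), CCNB1 (chromosome 16, 47338239 to 47348385), CCNB2 (chromosome 1, 112907047 to 112942218) or CDC20 (chromosome 6, 167886266 to 167890587). A gene annotated as aurora kinase A-like had at most 4 counts in any library.

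AURKB also differed between the authors' units. The length implied by CPM divided by FPKM ranged from 1.46 to 2.47 kilobases for AURKB over 12 libraries, and from 2.07 to 2.1 for CCNB1. It also varied for CDK1 (1.37 to 1.62) and CCNB2 (1.79 to 2.02), so the ratios per length with these genes carry some of this variation. The lowest values for AURKB, 1.46 and 1.55, were in IVF blastocyst libraries 2 and 3. So AURKB had 44.9 ± 9.5 CPM and 25.2 ± 3.55 FPKM in IVF blastocysts, but 41.7 ± 2.53 CPM and 17.2 ± 0.61 FPKM in IVF hatched blastocysts, and the gap between these groups was 1.08 times by CPM means and 1.47 times by FPKM means. How the authors set the length was not given in the sources used here.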

How the data were processed

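The authors deposited 1 table of pig genes holding counts, FPKM and TPM. TPM and 1 FPKM column, 14 columns in all, were not used. Per the labels' protocols, mRNA was enriched with oligo(dT) beads, made into libraries with a NEBNext Ultra kit and sequenced as Illumina read pairs. Tools listed in the submitters' processing notes, without role or order, are HISAT2, RSEM, StringTie 1.3.1, Bowtie2 and fastp 0.18.0, and the build is Sscrofa11.1. Use of strand and the treatment of shared reads are not given in the sources used here. Counts were used as deposited by the authors. FPKM, the authors' value per gene length, was used for levels, ratios and shares of genes, and for implied lengths and AURKB beside CPM. Rows without a gene (24, holding 0.0171% to 0.112% of counts) were left out. All 28208 genes matched RefSeq of Sscrofa11.1 by gene number, from which positions were taken.

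Library sizes ran from 33222191 to 39256290 counts, so 3 counts, the limit that a count of 0 allows, came to 0.0764 to 0.0903 CPM, for counting error only. CPM was scaled by TMM over 13 libraries. Counts were tested with edgeR 4.0.16 in R 4.3.3 (quasi-likelihood F test, TMM, filterByExpr, Benjamini-Hochberg adjustment over all genes tested, threshold 0.05), in 1 fit of the 10 blastocyst and hatched libraries and 1 of the 9 IVF libraries. SE is the log2 fold change divided by the square root of F. DESeq2 1.42.0, other scalings, no filter, other sets of libraries, a replicate block and each library left out were alternatives. Fits were tested on simulated data. Up to 3 called genes with the smallest p were named per list and comparison. The 10 genes and the lists were chosen with earlier results of these data known. 1 in vivo hatched count column carries no replicate number.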

Additional observations from a re-analysis of the deposited data

Results flagged for a closer look

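The hatching change of PLK1 differed between origins. The log2 change after IVF minus that in vivo was -2.09 (interaction in edgeR's fit, adjusted p = 0.00834), from a change of 2.24 in vivo and 0.14 after IVF. Both in vivo hatched libraries were above both in vivo blastocyst libraries, and the IVF groups overlapped.

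CDK1 gave an interaction of -1.58 (adjusted p = 0.0343), from 1.38 in vivo and -0.20 after IVF. It passed the test in 2 of the 10 refits that left out a library. The part of animals, embryo age or batch in either difference cannot be told apart from origin.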

How the results depend on the processing

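No value for the 10 genes reversed a call. Of 1160 alternatives for single genes 1108 stayed on the same side of the threshold, 35 lost a call and 17 gained one. Most of the 1160 concern values not called in the main fit, which could lose no call. The 1108 therefore do not measure how stable the calls were. The 1108 include values that changed sign where neither fit gave a call, such as BUB1 for origin in hatched blastocysts (-0.354 to 0.699 with 1 library left out). In vivo groups of 2, 1 of them with an unnumbered column, limit the precision.

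With DESeq2, the genes called were 2940 for origin in blastocysts (1676 by edgeR), 3010 for origin in hatched blastocysts (1840), 3524 for in vivo hatching (2221), 50 for IVF hatching (7) and 1870 for the interaction (734). Without a filter on low counts they were 2743, 2846, 3235, 162 and 1850. With all 13 libraries in the fit they were 7, 93, 101, 0 and 1, and of the 10 genes 0, 0, 1, 0 and 0 were called. For in vivo hatching, 5 of the 10 were called by DESeq2, 4 without the filter and 1 with only the groups compared, where 758 of all genes were.

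Same-numbered libraries did not deviate together (correlations of -0.0444 to 0.0275), so the main fit used no pairing. In groups this small such a check cannot show that equal numbers share no animal or round. With the replicate number as a block, which left out the unnumbered library, 1026, 1155, 1147 and 346 genes were called for both origin comparisons, in vivo hatching and the interaction, and of the 10 genes 1, 2, 3 and 1. In this fit, with 1 in vivo hatched library left, PLK1 for origin in blastocysts (0.98) and CDK1 in the interaction (-1.71) lost their calls. BUB1B gained calls in hatched origin (-1.71) and in vivo hatching (1.96). Leaving out the unnumbered library without a block moved BUB1B the same way (-1.28 and 1.73), and the part of the block was not tested. With the block BUB1 gained a call in IVF blastocysts against the 4-cell stage (2.68, adjusted p = 0.0208, edgeR). Against the 4-cell stage the block gave 8051 genes for blastocysts (9180 without it) and 8121 for hatched ones (9217).

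Leaving out 1 library gave 323 to 2020 genes and 1 to 2 of the 10 for origin in blastocysts, lowest without in vivo library 1. It gave 513 to 2075 and 0 to 2 in hatched blastocysts, lowest without in vivo library 2. It gave 1067 to 2152 and 1 to 3 for in vivo hatching (1067 without blastocyst library 1, 1083 without hatched library 2), 4 to 7 genes for IVF hatching, and 319 to 969 and 1 to 2 for the interaction. Against the 4-cell stage it gave 7625 to 11440 genes and 5 to 7 of the 10 in blastocysts, and 7520 to 11526 and 4 to 7 in hatched ones, the 4 being without IVF hatched library 3. FPKM as an alternative for levels is in another unit and was not set against CPM, apart from the implied lengths and the AURKB values above.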
